A study of Mus musculus with 12 samples.

Results

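The 8 genes described here, Tcp1, Cct2, Cct3, Cct4, Cct5, Cct6a, Cct7 and Cct8, encode the subunits of the cytosolic chaperonin TRiC, also called CCT. They were taken by name from the 13951 Ensembl identifiers of the deposited expression table, and all 8 were present and passed the filter on low values. The table covers 12 poly(A) RNA libraries, each made from the ventral end of 1 mouse's right hippocampus. The groups were 3 Angelman syndrome (AS) females, 3 wild-type (WT) females, 3 AS males and 3 WT males, all of strain C57BL/6J and 12 to 16 weeks old. Angelman syndrome is a neurodevelopmental disorder caused in humans by loss of the maternal UBE3A gene, which encodes a ubiquitin ligase. The labels do not state the allele carried by the AS mice. The Ube3a transcript did not check it either, with a log2 difference of -0.09 ± 0.09 over both sexes (SE, limma, adjusted p = 0.976).

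TRiC is an ATP-driven folding machine of the cytosol, built from a pair of stacked rings that each hold 1 copy of the 8 related subunits. Newly made actin and tubulin reach their native fold inside its chamber, as do many proteins with WD40 propellers such as G protein beta subunits. Prefoldin hands unfolded actin and tubulin to it, and phosducin-like proteins act beside it as co-chaperones. In neurons these clients build the cytoskeleton of axons, dendrites and spines, and the assembled complex needs every subunit.

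The genes lie on 8 different chromosomes of GRCm38 in the GENCODE vM21 annotation. Tcp1 (ENSMUSG00000068039, the alpha subunit) is on chromosome 17 from 12915701 to 12925067, plus strand. Cct2 (ENSMUSG00000034024, beta) is on chromosome 10 from 117051001 to 117063814, minus strand, and Cct3 (ENSMUSG00000001416, gamma) on chromosome 3 from 88297116 to 88321767, plus strand. Cct4 (ENSMUSG00000007739, delta) is on chromosome 11 from 22990519 to 23003780, plus strand, and Cct5 (ENSMUSG00000022234, epsilon) on chromosome 15 from 31590800 to 31601804, minus strand. Cct6a (ENSMUSG00000029447, zeta) spans 129786998 to 129846371 on chromosome 5, plus strand, and is typed as a processed transcript in this annotation although it is a protein-coding gene in RefSeq. Cct7 (ENSMUSG00000030007, eta) is on chromosome 6 from 85451514 to 85468475, plus strand, and Cct8 (ENSMUSG00000025613, theta) on chromosome 16 from 87483326 to 87495873, minus strand. The related genes Cct6b and Cct8l1 were not analysed here.

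The promoters of 3 subunits are shown because Tcp1 and Cct6a had the most closely matched levels across mice, while Cct3 had the weakest relation to the rest. The sequences are the 250 bases before the RefSeq start on GRCm38.p6, written 5′ to 3′ on the gene's strand. Capitals mark CCAAT, the box bound by the factor NF-Y, or its reverse complement ATTGG. They cover chr17:12916079-12916328 for Tcp1, chr5:129787106-129787355 for Cct6a and chr3:88296885-88297134 for Cct3, each on the plus strand. The GENCODE spans of all 3 genes begin before the RefSeq start used here.
Tcp1: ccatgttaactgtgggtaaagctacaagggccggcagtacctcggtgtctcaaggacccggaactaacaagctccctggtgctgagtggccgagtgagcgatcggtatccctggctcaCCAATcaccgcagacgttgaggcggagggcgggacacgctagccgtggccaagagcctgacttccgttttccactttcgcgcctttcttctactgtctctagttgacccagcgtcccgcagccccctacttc
Cct6a: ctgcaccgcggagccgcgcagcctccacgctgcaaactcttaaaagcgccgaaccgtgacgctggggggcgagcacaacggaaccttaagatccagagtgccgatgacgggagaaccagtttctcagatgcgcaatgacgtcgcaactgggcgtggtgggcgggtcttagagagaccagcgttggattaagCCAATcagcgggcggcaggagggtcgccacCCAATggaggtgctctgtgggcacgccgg
Cct3: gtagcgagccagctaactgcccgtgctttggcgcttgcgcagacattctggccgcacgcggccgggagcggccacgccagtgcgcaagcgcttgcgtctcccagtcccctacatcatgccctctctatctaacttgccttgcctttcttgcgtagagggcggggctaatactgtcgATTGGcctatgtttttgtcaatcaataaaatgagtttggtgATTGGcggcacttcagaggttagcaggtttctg
RefSeq windows, each running from 250 bases before to 50 after a start, were matched for 7 of the 8 subunits (Cct4 had no entry). Searched on both strands, CCAAT occurred in 4 of these 7 genes and in 4 of their 9 windows. It stood 132 bases before the start of Tcp1, 29 and 59 bases before that of Cct6a, 33 and 74 bases before that of Cct3, and at 3 places in Cct7. Of all 32851 windows 37.4% hold it. The paired heat shock elements were read as GAANNTTC and TTCNNGAA, each its own reverse complement. GAANNTTC occurred in Cct2 (7.86% of all windows) and TTCNNGAA in Cct5 and Cct6a (8.52% of all windows), the Cct6a match lying 25 bases after the start and outside the sequence shown. These matches describe letters and not binding. The promoters of Tcp1, Cct6a and Cct3 all hold the CCAAT box, and a link between the box and matched levels was not tested. The weak relation of Cct3 to the rest depended on WT male replicate 2. Without that library its r against the mean of the other 7 subunits was 0.405.

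All 8 subunits were strongly transcribed, between the 90.6th and 95.3rd percentile of the 13858 genes tested. Levels are abundances normalized for gene length, back-transformed from the deposited values read as natural logs. Cct8 was highest at 126.4 ± 8.19, followed by Tcp1 at 120.7 ± 7.31 and Cct5 at 115.7 ± 4.21 (SD, n = 12). A middle group held Cct2 at 91.04 ± 3.08, Cct6a at 87.6 ± 7.11 and Cct7 at 86.76 ± 3.23. Cct3 at 77.97 ± 3.43 and Cct4 at 71.14 ± 6.00 were lowest. Abundance of Cct8 was thus 1.78 ± 0.099 times that of Cct4 within a library, or 1.51 times if the deposited values were logs to base 2.

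Of neighbours in this order, 1 pair kept its order in every library: Cct5 stood above Cct2 in 12 of 12. Tcp1 exceeded Cct5 in 11, Cct7 exceeded Cct3 in 11 and Cct3 exceeded Cct4 in 11. Cct8 against Tcp1 and Cct2 against Cct6a held in 9 each, and Cct6a against Cct7 in 6. The share of each subunit in the summed abundance of the 8 genes varied between libraries. The widest ranges were those of Cct3, from 9.34% to 11.76%, and Cct6a, from 10.26% to 12.58%. For Cct4, the smallest, the share ran from 8.48% to 9.84% over the libraries, and for Cct8, the largest, from 15.23% to 17.43%. The normalization of the table is not stated, but over these values it looks like quantile normalization. If so, a subunit's value is set by its rank within its library. All subunit values lie between 4.13 and 4.95 on the deposited scale, and all of the values between 2 and 5 there are shared by the 12 libraries.

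Mice of the same group differed little in Cct2, Cct5 and Cct7. The SD within groups, pooled over the 4 groups on the log2 scale, was 0.030 for Cct2, 0.038 for Cct7 and 0.040 for Cct5. Of all genes tested, 0.108%, 0.411% and 0.657% had a smaller SD than these genes in that order, and of the 873 genes with a mean log2 value of 6 to 7, 0.687%, 2.18% and 3.21% did. The median of those 873 genes was 0.101. Cct8 at 0.102, Cct6a at 0.101 and Cct4 at 0.094 lay close to it, with Tcp1 at 0.075 and Cct3 at 0.069 between. The 8 genes of the complex thus covered a range from among the least variable genes to the middle of genes at their level.

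**Figure D1:**
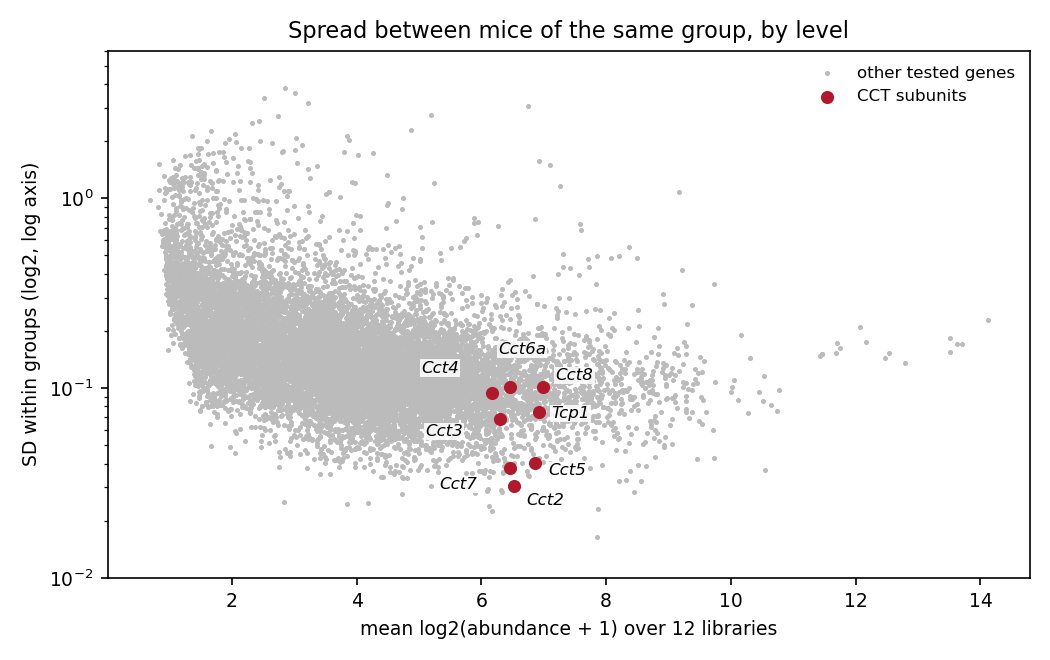
Within-group SD of each tested gene (log2 scale, log axis) against its mean log2(abundance + 1) over 12 libraries, with the 8 CCT subunits in red. Cct2, Cct7 and Cct5 lie at the lower edge, at 0.030 to 0.040, and Cct8 and Cct6a in the middle of the cloud at 0.10.

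Whole-series checks touch these values at a few points. Neuronal markers fitted the labelled tissue, with Slc17a7 at 8.39 to 8.84 and Camk2a at 9.34 to 9.75 on the log2 scale, and depth is unknown because the values are not counts. Choroid plexus markers, 8 genes of an epithelium that can adhere to a hippocampal piece, averaged 4.22 to 6.49 in 4 libraries (AS female replicate 2, WT female replicates 1 and 2, AS male replicate 2) and 1.68 to 2.62 in the other 8. In WT female replicate 1, Xist was at 0.35, against 6.00 to 6.45 in the other female libraries and 0.17 to 0.52 in males, while its Y-linked genes were at the female level. Every library name carries lane 7, so no sequencing batch could be compared.

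WT males had the lowest mean of the 4 groups for 7 of the 8 subunits, the exception being Cct3, lowest in WT females. The summed abundance of the 8 genes was 787.6 ± 33.7 in AS females, 787.9 ± 23.1 in WT females, 793.9 ± 23.8 in AS males and 739.7 ± 19.6 in WT males (SD, n = 3). A WT male held the lowest value of all 12 libraries for 7 of the 8 genes, all but Cct8, whose lowest value was in AS female replicate 3. In the whole table a WT male held the lowest value for 27.1% of genes. For 6 subunits the 2 lowest values were both in WT males, as for 6.18% of all genes. For Cct4 all 3 WT males lay below every other library, as for 0.729% of all genes. The subunits tended to move together across mice, so these counts are not separate observations and were not tested as a set. In bulk tissue, fewer cells of a type and less RNA per cell cannot be told apart.

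**Figure D2:**
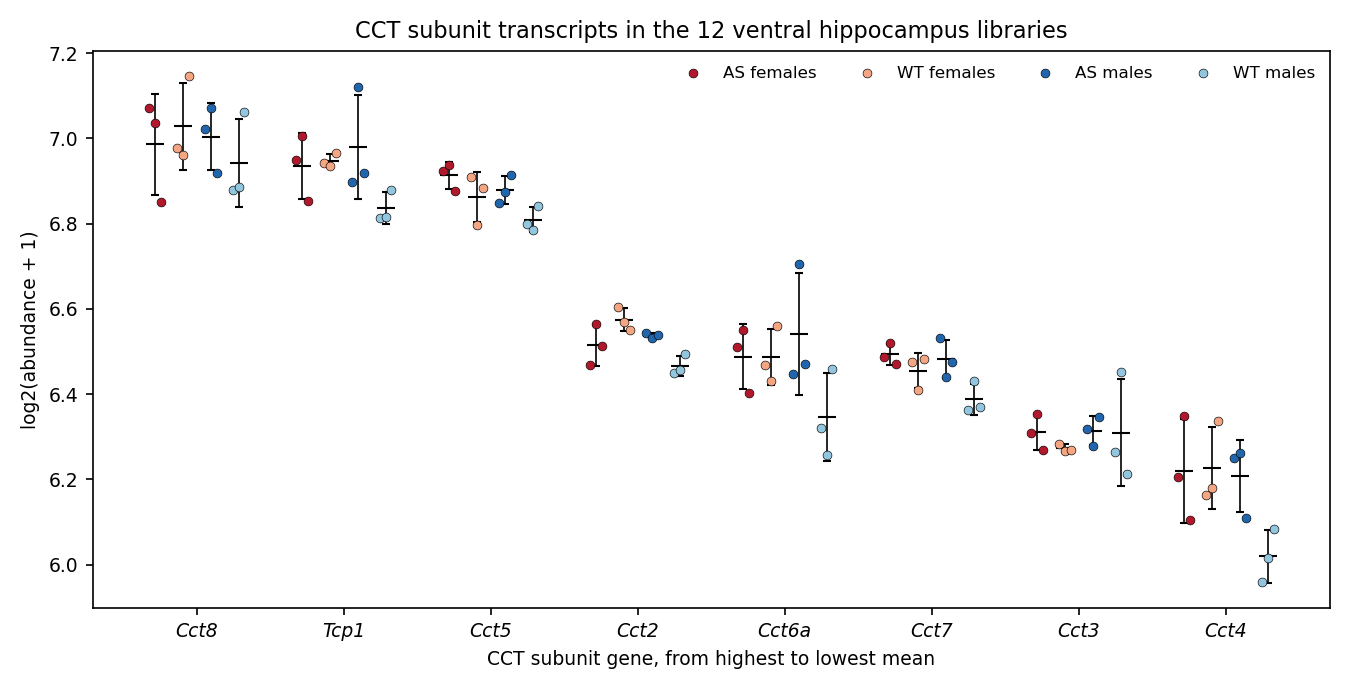
Log2(abundance + 1) of each CCT subunit in each of the 12 libraries, in groups of AS females, WT females, AS males and WT males. Points are mice, horizontal bars group means and vertical bars SD (n = 3). WT males reach the lowest values for 7 of 8 genes, and all 3 lie at the bottom for Cct4.

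The first question was whether the subunits differed between AS and WT males. All 8 had a difference above 0, as did 52.4% of all genes, and the libraries of the groups did not overlap for 5 of them (Tcp1, Cct2, Cct4, Cct5 and Cct7), against 6.02% of all genes with AS above WT. The median log2 difference over the 8 genes was 0.083, against 0.0080 over all genes. The subunits were correlated across these mice, so here and in the later comparisons their counts are not counts of independent observations. An unadjusted p under 0.05 was reached by 2 subunits, Cct4 and Cct6a, against 3.21% of all genes in the same direction. That count was 1 without AS male replicate 2 or with only the groups compared, and 0 without WT male replicate 1 or WT male replicate 2. After Benjamini-Hochberg adjustment in limma no subunit passed (0 of 8, adjusted p = 0.763 to 0.993) and no gene in the table did (0%), with 890 genes, or 6.42%, at an unadjusted p under 0.05.

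Cct4, whose product contacts actin in the chamber, had log2 values of 6.25, 6.26 and 6.11 in AS males, against 5.96, 6.02 and 6.08 in WT males. The groups did not overlap, although AS male replicate 3 lay close to the highest WT male. The log2 difference was 0.19 ± 0.08, or 13.9%, with an unadjusted p of 0.0324 and an adjusted p = 0.763 (limma, SE). Cct6a had 6.45, 6.70 and 6.47 in AS males, against 6.32, 6.26 and 6.46 in WT males. Here the groups overlapped, with AS male replicate 2 far above the rest and AS male replicate 1 just below the highest WT male. Its difference was 0.20 ± 0.08 (unadjusted p = 0.0335, adjusted p = 0.763, limma), and 0.11 without AS male replicate 2.

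Tcp1 had 6.90, 7.12 and 6.92 in AS males, against 6.81, 6.82 and 6.88 in WT males. Every AS male lay above every WT male, AS male replicate 2 by the widest margin. The difference was 0.14 ± 0.07 (unadjusted p = 0.0531, adjusted p = 0.769, limma), and 0.07 without AS male replicate 2. That library was the AS male high in choroid plexus markers. The mean of the 8 markers was 1.84, 4.22 and 1.68 in AS males, against 2.34, 2.24 and 1.89 in WT males. All 8 markers had a difference above 0 in males, none called. With the marker mean as a covariate the differences were 0.18 for Cct4, 0.19 for Cct6a and 0.13 for Tcp1. The 4 libraries high in these markers were also left out, which leaves 1 WT female in the fit. The male median over the 8 subunits was then 0.073, with 8 of 8 above 0. Among males this removes only AS male replicate 2, so these are the same differences as without that mouse alone. The part of choroid plexus tissue in the male differences was not tested.

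Cct7 had 6.53, 6.44 and 6.48 in AS males, against 6.36, 6.43 and 6.37 in WT males. The groups did not overlap, by a margin in the second decimal. The difference was 0.09 ± 0.05 (unadjusted p = 0.0824, adjusted p = 0.778, limma). Cct2 had 6.54, 6.53 and 6.54 in AS males, against 6.45, 6.46 and 6.49 in WT males. The AS males were nearly identical and all above the WT males. The difference was 0.07 ± 0.05 (adjusted p = 0.818, limma). Cct5, which is linked in humans to a hereditary sensory neuropathy, had 6.85, 6.87 and 6.91 in AS males, against 6.80, 6.79 and 6.84 in WT males. These groups did not overlap either, with the lowest AS male next to the highest WT male, and the difference was 0.07 ± 0.05 (adjusted p = 0.830, limma).

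Cct8 had 7.02, 7.07 and 6.92 in AS males, against 6.88, 6.89 and 7.06 in WT males. WT male replicate 3 lay within the AS range, and the difference was 0.06 ± 0.08 (adjusted p = 0.923, limma). Cct3 had 6.32, 6.28 and 6.35 in AS males, against 6.26, 6.45 and 6.21 in WT males. WT male replicate 2 held the highest Cct3 value of all 12 libraries, above every AS male. The difference was 0.01 ± 0.06 (adjusted p = 0.993, limma) and rests on that mouse, being 0.08 without it. The same library had the highest mean of the 6 excitatory neuron markers in males. That mean was 6.64, 6.57 and 6.70 in AS males, against 6.70, 7.02 and 6.68 in WT males, with 5 of the 6 markers below WT and none called. Astrocyte markers, with a mean of 6.59 ± 0.03 in AS males and 6.53 ± 0.04 in WT males (SD, n = 3), had 5 of 6 above 0 and a median difference of 0.075, close to that of the subunits. Interneuron markers had 5 of 6 below 0, 2 of them at an unadjusted p under 0.05. No gene of these lists was called, and the part of excitatory neuron, astrocyte and interneuron markers in the subunit differences was not tested.

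In females the subunits showed no common direction. Of the 8 differences, 4 were above 0 and 4 below, ranging from -0.06 to 0.05 with a median of -0.0032, and 51.6% of all genes were above 0. No subunit had groups that did not overlap (9.01% of all genes had, in either direction). None passed in limma (0 of 8, adjusted p = 1.00, 0% of all genes called), and none had an unadjusted p under 0.05, against 438 genes, or 3.16%, in the table. Cct5 had the highest difference, 0.05 ± 0.05, with log2 values of 6.92, 6.94 and 6.88 in AS females and 6.91, 6.80 and 6.88 in WT females. Cct2 had the lowest, -0.06 ± 0.05, with 6.47, 6.56 and 6.51 in AS females and 6.60, 6.57 and 6.55 in WT females. WT female replicate 3 lay just below AS female replicate 2 for Cct2, so the groups overlapped by 1 mouse.

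Cct4 and Cct6a, the pair with the largest differences in males, were at -0.01 ± 0.08 and 0.00 ± 0.08 in females. Cct4 had 6.21, 6.35 and 6.10 in AS females and 6.16, 6.18 and 6.34 in WT females. Cct6a had 6.51, 6.55 and 6.40 in AS females and 6.47, 6.43 and 6.56 in WT females. In both genes AS female replicate 3 was the lowest of the 6 and the groups overlapped. The 95% intervals in females run from -0.18 to 0.16 for Cct4 and from -0.18 to 0.18 for Cct6a. In males they run from 0.02 to 0.36 and from 0.02 to 0.37, so the intervals of the sexes overlap for both genes. Female differences depended on single mice: the median was 0.046 without AS female replicate 3, with 7 of 8 genes above 0. Without the 4 libraries high in choroid plexus markers it was -0.06. Those markers averaged 3.64 ± 2.33 in AS females and 4.85 ± 2.00 in WT females (SD, n = 3), and of the 6 astrocyte markers 1 lay above 0. The part of both lists in the female values was not tested.

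Whether the genotype difference depended on sex was read from the interaction, the male difference minus the female difference. It was above 0 for 7 of 8 subunits (50.5% of all genes) and ranged from -0.03 for Cct3 to 0.19 for Cct4 and Cct6a. The 95% interval included 0 for each of the 8, running from -0.04 to 0.43 for Cct4 and from -0.06 to 0.45 for Cct6a. None passed in limma (0 of 8, adjusted p = 0.987 to 0.993, 0% of all genes called), and the smallest unadjusted p was 0.0756, for Cct2 at 0.13 ± 0.07. Without AS female replicate 2, 1 subunit had an unadjusted p under 0.05, and 1 had with libraries weighted by quality in limma. Over all genes tested, 522 (3.77%) had an unadjusted p under 0.05. A difference between the sexes in the effect of genotype was therefore not shown for any subunit.

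**Figure D3:**
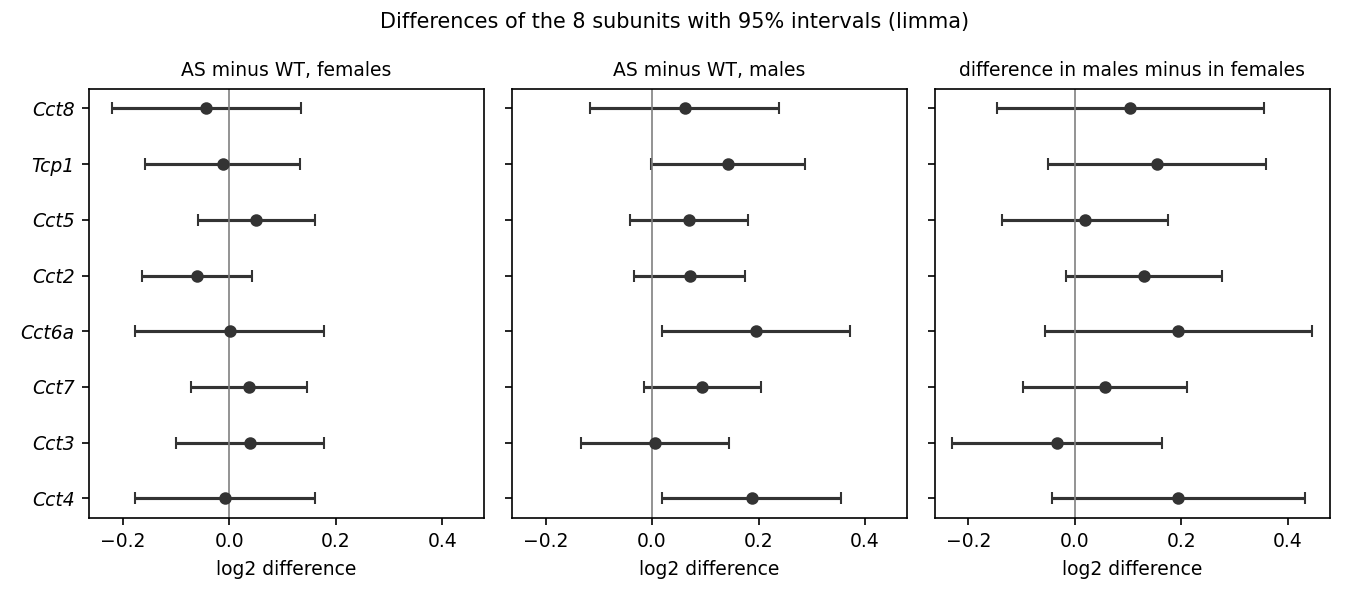
Log2 differences of the 8 subunits between AS and WT in females and in males, and the male difference minus the female difference, with 95% intervals from limma. In males all 8 points lie above 0 and the intervals of Cct4 and Cct6a lie wholly above it, while the intervals for females and for the interaction include 0 for all 8 genes.

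Over both sexes all 8 differences were above 0 (52.7% of all genes), with a median of 0.063 against 0.0053 over all genes. Cct6a at 0.10 ± 0.06, Cct4 at 0.09 ± 0.05, Cct7 at 0.07 ± 0.04 and Tcp1 at 0.07 ± 0.05 were the highest, and Cct2 at 0.01 ± 0.03 the lowest (SE, 6 mice per genotype). No subunit passed in limma (0 of 8, adjusted p = 0.914 to 0.991, 0% of all genes called). None had an unadjusted p under 0.05, while 741 genes, or 5.35%, had one. Without AS male replicate 2, 1 subunit had one, and 1 had with libraries weighted by quality in limma. Without the 4 libraries high in choroid plexus markers the median was 0.0061, with 6 of 8 above 0. The combined median therefore depended on which libraries were kept. In the same comparison all 6 oligodendrocyte markers lay above 0 (median 0.15) and all 6 interneuron markers below 0 (median -0.10, 1 at an unadjusted p under 0.05), none called, and their part in the subunit values was not tested.

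Between the sexes, WT mice were set side by side in a contrast that uses the same WT males as the male genotype comparison. Males lay below females for 7 of 8 subunits (51.2% of all genes lay above), with a median of -0.10, and the groups did not overlap for Tcp1, Cct2 and Cct4 (6.62% of all genes with males below). Cct4 had 5.96, 6.02 and 6.08 in WT males, against 6.16, 6.18 and 6.34 in WT females, a difference of -0.21 ± 0.08 (unadjusted p = 0.0200, adjusted p = 0.632, limma). Cct2 had 6.45, 6.46 and 6.49 in WT males, against 6.60, 6.57 and 6.55 in WT females, a difference of -0.11 ± 0.05 (unadjusted p = 0.0419, adjusted p = 0.640, limma). Those 2 subunits reached an unadjusted p under 0.05 (3.30% of all genes in that direction) and 0 of 8 passed, against 0.0289% of genes called. No subunit reached that unadjusted p (0 of 8) without WT female replicate 3, without WT male replicate 1 or with the mean of the choroid plexus markers in the model, where the median was -0.08. All 8 choroid plexus markers lay below 0 in WT males, by a median of -2.55, and 7 of them had an unadjusted p under 0.05. With that covariate the differences were -0.18 for Cct4, -0.08 for Cct2 and -0.05 for Tcp1. Without the 4 libraries high in these markers, which leaves 1 WT female, they were -0.32, -0.08 and -0.13. In AS mice 5 of 8 subunits lay above 0 for males minus females (51.5% of all genes) and 3 below, from -0.04 for Cct5 to 0.05 for Cct6a, and 0 passed (0.0361% of genes called). Without AS female replicate 3, or without AS male replicate 2, 3 of 8 lay above 0, while 7 of 8 did without AS female replicate 2 or without the 4 libraries high in choroid plexus markers.

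The subunits tended to be high or low together in the same mice. Of the 28 pairs, 22 had a Pearson's r above 0 across the 12 libraries, with a median of 0.475, and 20 did after group means were taken out, with a median of 0.241. Of all pairs of tested genes 50.5% had r above 0, with group means in or taken out. Tcp1 and Cct6a were the closest pair, with r = 0.951 (100000-resample permutation p = 1e-05, the smallest that number can give, adjusted p = 0.00028 over 28 pairs) and Spearman's rho = 0.923 (permutation p = 3e-05, adjusted p = 0.00084). Without the 2 libraries farthest from the median of Tcp1 r was 0.892, and on deviations from group means it was 0.917.

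Another 4 pairs passed by Pearson's r, each with an adjusted permutation p of 0.0249. Cct4 took part in 3 of them, with Cct6a at r = 0.786 (rho = 0.804), with Tcp1 at r = 0.771 (rho = 0.895) and with Cct8 at r = 0.762 (rho = 0.722), and Cct6a with Cct8 made the last at r = 0.749 (rho = 0.830). Without the 2 farthest libraries r was 0.748, 0.849, 0.761 and 0.797 for these pairs, and within groups 0.660, 0.626, 0.847 and 0.793. The permutation p of rho for them ranged up to 0.0106, adjusted to 0.0372. By rho 9 of the 28 pairs passed, among them Tcp1 with Cct8, which did not pass by r (r = 0.660, adjusted permutation p = 0.0565). Of all pairs of tested genes 0.66% had an r of at least 0.749. The r within groups were not tested. Depth and RNA quality are not known per library, and their part in these correlations was not tested.

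Set against the mean of the other 7 subunits, Cct4 followed most closely (r = 0.912), then Tcp1 (0.832) and Cct6a (0.818). Cct8 at 0.664, Cct5 at 0.656, Cct7 at 0.608 and Cct2 at 0.541 were looser. On deviations from group means Cct2 was at 0.175 and Cct7 at 0.171, while Cct8 was at 0.772. For Cct2 and Cct7 the pooled relation therefore lay mostly between groups. The tested genes outside the complex had r between -0.702 and 0.677 with the mean deviation of the subunits (5th to 95th percentile), so values in that range are common in 12 libraries.

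Cct3 stood apart from the others, with r = -0.161 against the mean of the other 7. All 21 pairs without Cct3 had r above 0, while Cct3 had it with 1 partner, Cct7 (r = 0.375, permutation p = 0.235). Its lowest was with Cct6a at r = -0.333 (permutation p = 0.277). This rests on WT male replicate 2, the mouse with the highest Cct3 and the lowest Cct6a. Without it r against the other 7 was 0.405 and 27 of the 28 pairs were above 0.

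**Figure D4:**
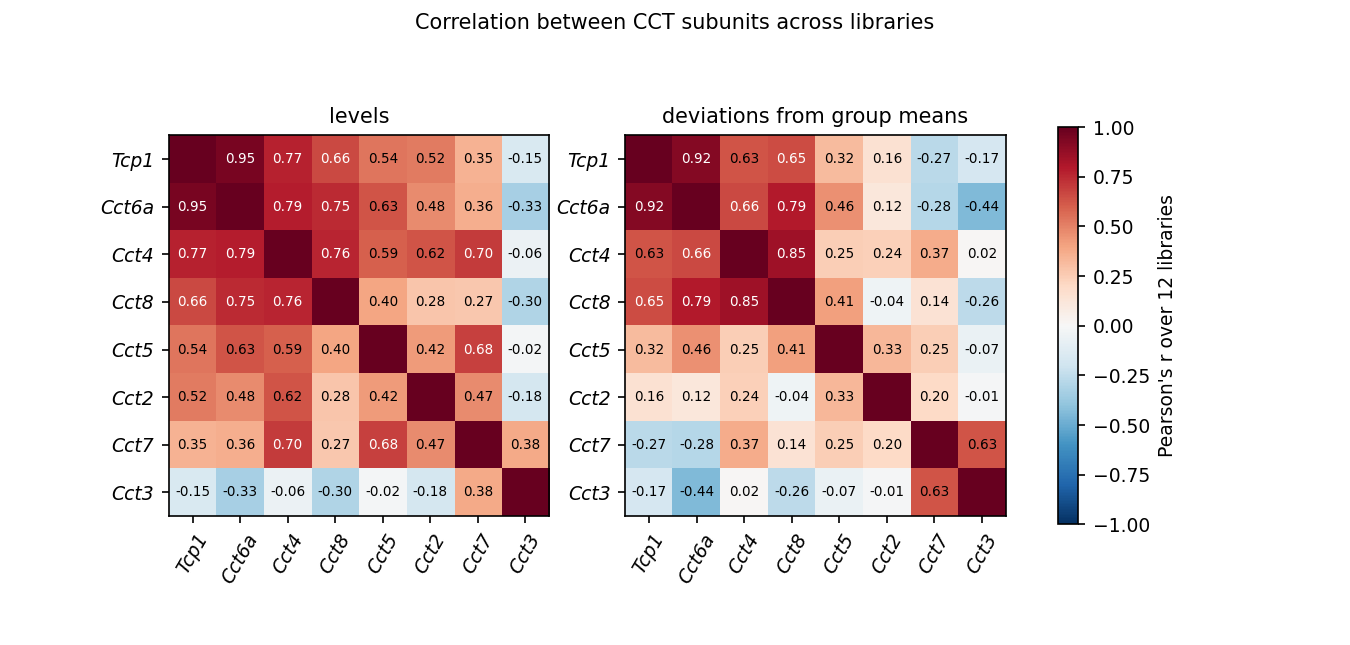
Pearson's r between each pair of CCT subunits over 12 libraries, for log2 levels on the left and for deviations from group means on the right. Red is positive and blue negative. Tcp1, Cct6a, Cct4 and Cct8 form a red block in both panels, and Cct3 has the only negative values among levels.

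The genes outside the complex whose deviations from group means correlated best with the mean deviation of the 8 subunits were Tmx4 (r = 0.958), Ttc3 (0.940), Ssr1 (0.940), Zfp965 (0.933), Ifit2 (0.919), Rtraf (0.918), Mtdh (0.918), Rhobtb3 (0.914), Rab3gap1 (0.912) and Tm9sf2 (0.910), over 12 libraries. Tmx4 encodes a thioredoxin-like protein of the endoplasmic reticulum membrane, Ssr1 a subunit of the translocon-associated complex and Ttc3 a ubiquitin ligase. These 10 are the highest of 13850 genes and carry no test. On levels rather than deviations r was 0.743 for Ttc3, 0.913 for Tmx4 and 0.859 for Ssr1. No gene of prefoldin, the co-chaperones or the client lists was among them.

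The partners of TRiC showed no called gene for AS against WT over both sexes. Of 6 prefoldin subunits, which deliver actin and tubulin, 4 lay above 0 and 2 below, with Pfdn4 at 0.09 ± 0.08 (SE), Pfdn1 at 0.05 ± 0.05 and Pfdn5 at -0.06 ± 0.08. Of 8 phosducin-like co-chaperones and regulators 2 lay above 0 and 6 below. Txndc9, a phosducin-like protein that binds the chaperonin, was at 0.08 ± 0.05, and Bag3, a co-chaperone of Hsp70, at -0.09 ± 0.07.

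Hsf1, the transcription factor of the heat shock response, differed in direction between the sexes without passing. In males it had 4.07, 3.96 and 4.06 in AS mice, against 4.26, 4.26 and 4.23 in WT mice. The male groups did not overlap, and the difference was -0.22 ± 0.06 (unadjusted p = 0.00442, adjusted p = 0.748, limma). In females it had 4.13, 4.12 and 4.22 in AS mice, against 4.08, 4.11 and 4.01 in WT mice, also without overlap but with AS above, at 0.09 ± 0.06. The interaction was -0.31 ± 0.09 (unadjusted p = 0.00413, adjusted p = 0.987, limma).

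Related chaperonins were read beside TRiC. Of the 3 chaperonin-like genes of Bardet-Biedl syndrome, Bbs10 was at 0.12 ± 0.10, Bbs12 at 0.01 ± 0.10 and Mkks at -0.01 ± 0.10 over both sexes. In males all 3 lay above 0 (52.4% of all genes) with overlapping groups. Their male median was 0.082, near the 0.083 of the subunits. In females 1 of the 3 lay above 0. The interaction was above 0 for all 3 (50.5% of all genes), with a median of 0.11, and none was called. The mitochondrial chaperonin gene Hspd1 was at 0.01 ± 0.05, while its co-chaperonin Hspe1 was at -0.17 ± 0.05 (unadjusted p = 0.00682, adjusted p = 0.758, limma). Hspe1 had 6.82, 6.70 and 6.81 in AS males, against 6.98, 6.98 and 6.94 in WT males. The male groups did not overlap for Hspe1, AS below WT, the opposite direction to the cytosolic subunits in the same mice. Hspd1 was at 0.07 ± 0.06 in males, the same direction as those subunits, with overlapping groups (adjusted p = 0.873, limma).

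Clients of the chaperonin were likewise not called. Of 7 actin and actin-related genes 5 lay above 0 over both sexes, with Actr3 at 0.05 ± 0.05, Actr2 at 0.03 ± 0.05 and Actl6b at 0.04 ± 0.06. Of 13 tubulin genes 9 lay above 0 and 4 below, led by Tuba4a at 0.09 ± 0.07, Tuba1b at 0.07 ± 0.05 and Tubb5 at 0.06 ± 0.06. Tubulin genes are alike in sequence, so reads may be shared between them. Of 7 tubulin folding cofactors, which take tubulin over after the chaperonin, 2 lay above 0 and 5 below, with Tbca at -0.10 ± 0.07, Tbcb at -0.06 ± 0.07 and Tbcel at -0.06 ± 0.08.

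Among WD40 and other clients 10 of the 18 tested lay above 0 and 8 below (Cdc20 and Plk1 were not analysed here). Gnb4, a G protein beta subunit, had 3.22, 3.19 and 3.14 in AS males, against 2.81, 2.86 and 2.86 in WT males. In females it had 3.20, 2.91 and 3.27 in AS mice, against 2.85, 3.00 and 3.01 in WT mice. The male groups did not overlap and the female groups did, and the difference over both sexes was 0.26 ± 0.07 (unadjusted p = 0.00302, adjusted p = 0.661, limma). Strn was at 0.09 ± 0.06 and Gnb5 at 0.07 ± 0.07. Of all genes tested, 2.77% had an unadjusted p under 0.05 with AS above WT over both sexes, and Gnb4 was the 1 such gene among the 18 clients.

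Overlapping genes limit how 4 of the subunits can be read. On the opposite strand, Tcp1 shares 571 exonic bases with Acat3 and 141 with Mrpl18, Cct6a shares 452 with Psph, Cct7 shares 214 with Pradc1 and Cct8 shares 192 with Usp16. The strand setting of the counting is not given in the sources used here, so reads in these stretches cannot be told apart. Mean log2 values were 2.41 for Acat3, 5.21 for Mrpl18, 3.95 for Psph, 3.31 for Pradc1 and 4.62 for Usp16. Those of Tcp1, Cct6a, Cct7 and Cct8 were 6.92, 6.47, 6.45 and 6.99. On the same strand, the small nucleolar RNA genes Gm26130 and Snora15 share 138 exonic bases with Tcp1 and 102 with Cct6a. In males the differences were 0.27 for Acat3, 0.16 for Mrpl18, -0.08 for Psph, -0.24 for Pradc1 and -0.06 for Usp16 (none called). Acat3 and Mrpl18 had the same sign as Tcp1 at 0.14. Psph shares 12.5% of the Cct6a exons and had the opposite sign to Cct6a at 0.20. Pradc1 and Usp16 likewise had the opposite sign to Cct7 at 0.09 and Cct8 at 0.06. The part of shared reads in these differences was not tested. RefSeq lists 15 pseudogenes of 6 subunits, none of them rows of the table, and reads may be shared with them.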

How the data were processed

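Each deposited value was read as a natural log, ln(RSEM abundance + 1), for 1 gene in 1 library. The submitters' processing notes name Trimmomatic, Bowtie2, RSEM and GRCm38 (mm10). The authors' log base, abundance unit (TPM or FPKM), filter and normalization are not given in the sources used here. Values between 2 and 5 recur in all 12 columns, as after quantile normalization. With base 2, log2 differences would be 0.693 times as large.

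Values were converted to log2(abundance + 1). The filter, a mean abundance of at least 1, removed 93 genes. One model with 4 group means and 8 residual degrees of freedom was fitted to 13858 genes with limma 3.58.1 (trend) in R 4.3.3, with Benjamini-Hochberg adjustment. Genes were called at an adjusted p under 0.05. Nothing in the labels says whether mice were littermates, so p-values measure only the spread between these mice. Correlations used 100000 permutations.

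The text names all 8 subunits, up to 3 genes per list with the smallest p over both sexes, and the 10 genes most like the subunit mean. Hsf1 and Gnb4 follow that rule. Members, lists and alternatives were chosen with earlier results of these data known. The plan for count data did not apply.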

Additional observations from a re-analysis of the deposited data

Results flagged for a closer look

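Cct2 drew attention because its genotype difference had opposite directions in the sexes. All 3 AS males lay above the WT male mean of 6.47, and all 3 AS females lay below the WT female mean of 6.57. The male difference minus the female difference was 0.13 ± 0.07 on the log2 scale (SE, limma), with a 95% interval of -0.02 to 0.28. That test of the difference did not pass, with an unadjusted p of 0.0756 and an adjusted p = 0.987 (limma). Opposite signs were not particular to Cct2. Tcp1, Cct4 and Cct8 were at -0.01, -0.01 and -0.04 in females and at 0.14, 0.19 and 0.06 in males. The interaction was larger for Cct4 and Cct6a, at 0.19 each, and for Tcp1, at 0.16.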

How the results depend on the processing

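No subunit was called in any of the 1088 fits of a subunit under an alternative (lowest adjusted p = 0.473, limma). Over the alternatives the median male difference stayed between 0.057 and 0.104. Counts of genes called in the whole table moved most. Without the 4 libraries high in choroid plexus markers they were 5 in females, 1 in males, 2 over both sexes, 2 in the interaction and 7 for WT males against females, and the median subunit difference was -0.0625 in females and 0.0061 over both sexes. With a mean abundance of at least 5, 2 genes were called between WT sexes and 3 between AS sexes, and with only the groups compared 3 between AS sexes. Leaving out 1 library at a time gave 0 to 1 in females, 0 to 1 in males, 0 to 2 over both sexes, 0 to 1 in the interaction, 4 to 8 between WT sexes (8 without WT female replicate 1) and 2 to 8 between AS sexes. The median subunit difference in females then ran from -0.0385 to 0.046. The ratio of Cct8 to Cct4 was 1.51 with base 2. Leaving out libraries was chosen after seeing the data for the ratio and for the correlations, and 22 to 27 of the 28 pairs then had r above 0. The cause of these moves was not tested. No paired analysis was possible because the replicate numbers follow accession order and pair no mice. A count test (DESeq2) was not run, since the table holds no counts. Depth is unknown, so no counting error is given.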
